A study of Mus musculus with 6 samples.

Results

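The long noncoding RNAs described here are the rows of the deposited mouse gene table annotated as lincRNA, antisense or bidirectional promoter lncRNA that reached a mean of at least 100 counts over the 6 libraries. The rule selected 58 of the 2695 rows with these annotations, in a table of 23390 genes. They comprised 36 rows annotated as lincRNA, 16 as antisense and 6 as bidirectional promoter lncRNA. LincRNAs are defined as lying between protein-coding genes, and bidirectional promoter transcripts as starting beside a protein-coding promoter and running away from it. The coordinates do not always follow these definitions. The lincRNA 1300002E11Rik overlaps Map3k13, and the bidirectional promoter transcript Ndufb1-ps starts inside Cpsf2. The members were selected on measured values, the mean count over both groups, so their being abundant is a result of the rule. Gm21814 at a mean of 106.8 counts and A130014A01Rik at 110.7 lay just inside the limit, and Gm1965 and A330035P11Rik, both at 97.83, lay just outside it. All 58 passed the filter on low counts and were tested. A mean of at least 100 counts was reached in both groups by 55 of them, only in Maf.flox by Gm21814, Slc13a2os and Cep83os, and only in Vil.Cre Maf.flox by 0, so those 3 met the rule through the group where they are higher. Host transcripts that the annotation files under other headings, such as processed transcript, are outside the rule.

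The libraries were made from viable CD45- EpCAM+ intestinal epithelial cells (IEC) sorted from the small intestine of C57BL/6 mice. There were 3 libraries of Maf.flox mice, which carry floxed Maf and no Cre, and 3 of Vil.Cre Maf.flox mice, in which a Cre recombinase driven by the villin promoter deletes the floxed gene in the gut epithelium. Both groups carry the floxed allele, the labels give neither age nor litter, and a group with Vil.Cre but intact Maf was not analysed here. The labels do not say that the libraries came from separate mice, so a p-value here reflects library-to-library spread.

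Long noncoding RNAs are transcripts without a recognised long open reading frame, many of which, but not all, are spliced and processed much like messenger RNAs. Some act in the nucleus, where Xist coats the inactive X chromosome, Neat1 builds paraspeckles and Malat1 lies in nuclear speckles. Others act in the cytoplasm, host small RNAs in their introns, or mark transcription that runs against a neighbouring gene. Maf (c-Maf) is a leucine zipper transcription factor of the AP-1 superfamily. In the gut epithelium, enterocytes mature as they move from the crypt to the villus tip.

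Counts of Maf were 9398, 5615 and 3893 in the controls, against 16, 1 and 1 after deletion, which matched the labels. Library totals ran from 17464355 to 24802525 counts. The general epithelial markers summed to 14560 to 15990 CPM (counts scaled to library size with edgeR's TMM factors) in Maf.flox and 13980 to 17880 CPM in Vil.Cre Maf.flox. Stromal markers summed to at most 0.676 CPM in any library. Among leukocyte markers, Ptprc reached at most 2.288 CPM, Igha 11.5 CPM and Lcp1 22.65 CPM. Of the 5 leukocyte markers tested, 3 lay above 0 and 2 below, with a median log2 fold change of 0.38, and none was called. The leukocyte list as a whole summed to 1804 to 2051 and 1952 to 2858 CPM, of which Cd74, also expressed by epithelium, made up 1781 to 2024 and 1930 to 2835 CPM. Xist and Y-linked counts marked Maf.flox replicate 1 and Vil.Cre Maf.flox replicates 1 and 2 as male and the other 3 libraries as female, so the sexes were not balanced between the groups.

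Markers of mature cell types also differed between the groups. Enterocyte markers summed to 28790, 27570 and 14380 CPM in Maf.flox replicates 1 to 3, against 10400, 13320 and 8223 CPM in Vil.Cre Maf.flox, without overlap, and 2 of the 12 markers were called lower. Tuft cell markers, at 52.88, 122.1 and 25.16 against 17.79, 23.23 and 21.67 CPM, did not overlap either, although none of the 10 tested was called. Maf.flox replicate 3 lay nearest to the Vil.Cre Maf.flox libraries on both lists. Goblet, Paneth and enteroendocrine sums overlapped between the groups. In these bulk libraries fewer cells of a type and less RNA per cell cannot be told apart.

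Of the 58 long noncoding RNAs, 2 passed the test between genotypes. Gm26917 rose and Gm21814 fell in Vil.Cre Maf.flox cells. Both had an adjusted p of 0.0464 (edgeR quasi-likelihood, Benjamini-Hochberg over 13740 genes), and called means below 0.05. That was 3.45% of the members, against 0.546% of all genes tested (75 genes), with 0.189% of all genes called higher and 0.357% called lower. Among 9837 protein-coding genes at the same minimum count 63 were called, or 0.64%, and among 483 tested rows of the same annotations below it 1 was called. Gm21814 met the rule only through its Maf.flox libraries, so the share of members called supports nothing about the members as a set, and the shares were not tested against each other. At an unadjusted p below 0.05 there were 10 members, 17.2%, against 16.4% of all genes tested.

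The spread of fold changes among members was close to that of other genes. The log2 fold change was within 0.5 of 0 in 50 of 58, or 86.2%, against 84.8% of all genes tested and 91.0% of the protein-coding genes with at least 100 counts. It was above 0 in 23 and below 0 in 35, or 60.3%, against 51.6% of all genes tested. The median was -0.046, with quartiles of -0.23 and 0.17, beside a median of -0.010 for all genes tested. LincRNAs had a median of -0.142 with 24 of 36 below 0, antisense transcripts 0.025 with 7 of 16 below 0, and bidirectional promoter transcripts -0.098 with 4 of 6 below 0. In 7 members all Vil.Cre Maf.flox libraries lay above all Maf.flox libraries, against 10.1% of all genes, and in 8 they lay below, against 10.5%. Both counts are close to those background shares.

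**Figure D1:**
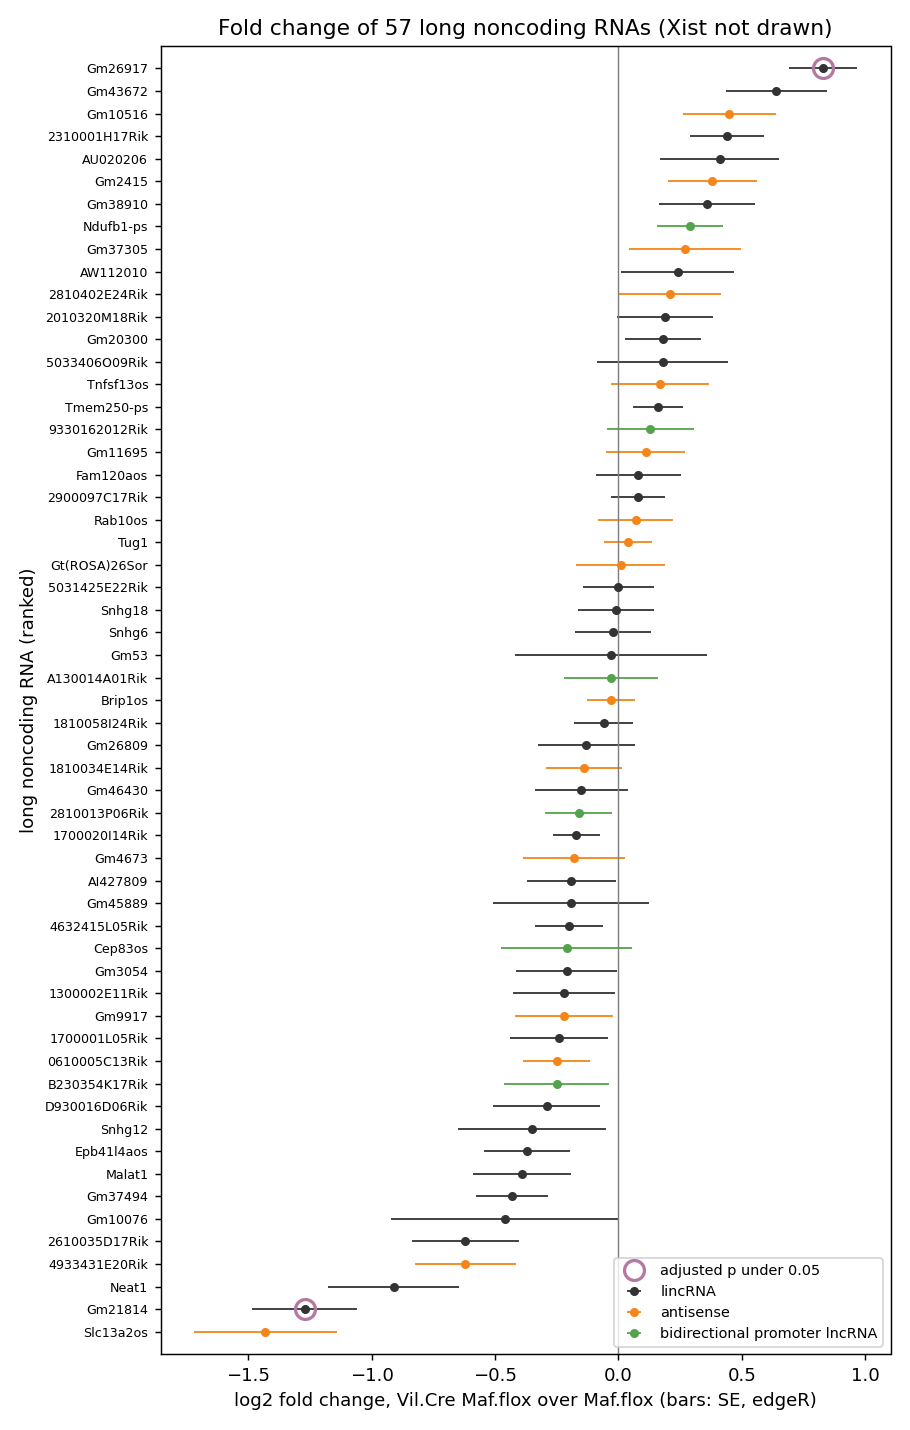
Log2 fold change of 57 long noncoding RNAs in Vil.Cre Maf.flox over Maf.flox cells (x axis), ranked (y axis), with the standard error from edgeR as bars, colours for the annotated class and rings for an adjusted p below 0.05. Gm26917 at 0.83 and Gm21814 at -1.27 are ringed, Slc13a2os at -1.43 is the lowest point, and Xist, whose standard error is 2.76, is not drawn.

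The promoters of 4 members are printed to show the searched word in place and windows without it: Gm21814, which was called; Slc13a2os, which had the lowest fold change; 2310001H17Rik, which was not called and is shown at the start whose window holds the word; and Tug1, one of the steadiest. None is printed for Gm26917, the other called member. They come from RefSeq on GRCm38.p6 and run from 250 bases before the start to 50 bases after it, read 5′ to 3′ on the strand of the gene. Capitals mark the 7-letter word TGCTGAG, which together with TGCTGAC was searched on both strands as the core word of the Maf recognition element. The intervals are chr6:149565832-149566131 on the plus strand for Gm21814, chr11:78394235-78394534 on the plus strand for Slc13a2os, chr6:129237996-129238295 on the minus strand for 2310001H17Rik and chr11:3648765-3649064 on the minus strand for Tug1.
Gm21814: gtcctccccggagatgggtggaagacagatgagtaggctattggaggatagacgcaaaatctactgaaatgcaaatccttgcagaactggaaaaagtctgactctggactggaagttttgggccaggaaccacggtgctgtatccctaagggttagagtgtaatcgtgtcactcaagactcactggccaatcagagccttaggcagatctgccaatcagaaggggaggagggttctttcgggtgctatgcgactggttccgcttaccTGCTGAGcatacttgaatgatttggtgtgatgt
Slc13a2os: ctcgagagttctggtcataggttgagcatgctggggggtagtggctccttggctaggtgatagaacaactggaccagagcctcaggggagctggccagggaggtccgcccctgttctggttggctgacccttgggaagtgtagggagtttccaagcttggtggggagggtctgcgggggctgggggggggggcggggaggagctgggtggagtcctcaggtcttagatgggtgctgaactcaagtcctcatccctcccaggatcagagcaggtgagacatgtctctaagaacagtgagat
2310001H17Rik: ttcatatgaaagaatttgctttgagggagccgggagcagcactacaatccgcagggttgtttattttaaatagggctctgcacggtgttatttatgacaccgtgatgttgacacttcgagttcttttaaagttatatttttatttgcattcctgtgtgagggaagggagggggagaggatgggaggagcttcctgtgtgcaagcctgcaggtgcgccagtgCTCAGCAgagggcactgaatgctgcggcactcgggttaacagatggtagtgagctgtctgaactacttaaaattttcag
Tug1: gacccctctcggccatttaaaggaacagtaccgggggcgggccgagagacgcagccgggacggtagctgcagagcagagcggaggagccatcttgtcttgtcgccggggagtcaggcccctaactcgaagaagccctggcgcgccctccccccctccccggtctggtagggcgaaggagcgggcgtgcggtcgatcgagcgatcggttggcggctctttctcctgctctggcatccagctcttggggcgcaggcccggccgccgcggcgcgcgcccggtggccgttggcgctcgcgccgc

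In Gm21814 the word began at position 17 after the start, on the strand of the gene. In 2310001H17Rik it stood on the other strand, so that it reads CTCAGCA here, at position -29, while a promoter of an alternative start of that gene held none. The Slc13a2os and Tug1 windows held neither core word, which says only that these letters are not in these windows. The Tug1 window lies inside the Tug1 row, which starts at chr11:3649673 on the minus strand. It therefore belongs to a start farther downstream, and the start of the row itself was not shown. RefSeq promoters were matched to 39 of the 58 members. TGCTGAG stood in 6 of them (15.4%, against 8.93% of 27025 genes with a promoter): 1300002E11Rik, 2310001H17Rik, B230354K17Rik, Gm11695, Gm21814 and Gm38910. TGCTGAC stood in 1, Snhg18 (2.56% against 5.28%), and the AP-1 word TGACTCA, which lies within the full Maf element, in 2 (5.13% against 5.95%). Either core word stood in 7 members, 17.9%, against 13.6% of all genes. The promoters of Tug1 and Gm21814 differed in base composition, at 71.3% and 49.7% GC, and the median was 55.7% over members and 52.8% over all genes. A match is a description of the sequence and shows no binding.

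Gm21814 is a lincRNA gene of 4 exons at chr6:149566090-149583656 on the plus strand (GRCm38), 2761 bases beyond the end of Bicd1, an adaptor for dynein motors, on the same strand. Its counts were 147, 160 and 154 in Maf.flox and 49, 59 and 72 in Vil.Cre Maf.flox, means of 153.7 and 60.0, so that only the group where it is high reached the level of the rule. On the CPM scale these were 6.17, 8.32 and 7.30 against 2.48, 3.46 and 3.08, or 7.26 ± 1.07 against 3.01 ± 0.493 (SD, n = 3 each). Every Vil.Cre Maf.flox library lay below every Maf.flox library. The log2 fold change was -1.27 with a standard error of 0.213, a 2.41-fold fall.

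The neighbouring Bicd1 had a smaller difference. Its log2 fold change was -0.48 (adjusted p = 0.259, edgeR quasi-likelihood), at 9.702 CPM in Maf.flox, against 6.92 CPM in Vil.Cre Maf.flox. Gm21814 also spans Gm44043, a row awaiting experimental support in the annotation, on the same strand, which had at most a mean of 0.3294 CPM in either group and shares no exon base with it. Within the male libraries (1 Maf.flox, 2 Vil.Cre Maf.flox) the Gm21814 log2 difference was -1.03, and within the female libraries (2 and 1) -1.32. With sex as a term in the model the adjusted p was 0.0645 (edgeR quasi-likelihood). The call was kept in 7 of 14 alternative fits, with adjusted p from 5.17e-05 to 0.245 and log2 fold changes from -1.37 to -1.14. It was lost on leaving out any library other than Maf.flox replicate 3.

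Gm26917 is a single-exon lincRNA row at chr17:39843013-39846341 on the plus strand. Counts were 465, 525 and 482 in Maf.flox and 885, 697 and 890 in Vil.Cre Maf.flox. In CPM these were 19.5, 27.3 and 22.8 against 44.8, 40.9 and 38.0, or 23.2 ± 3.90 against 41.3 ± 3.42 (SD, n = 3 each). All 3 Vil.Cre Maf.flox libraries stood above all Maf.flox libraries. The log2 fold change was 0.83 with a standard error of 0.138, a 1.78-fold rise. The difference was 1.13 within males and 0.60 within females on the log2 scale, and with sex as a term the adjusted p was 0.0594 (edgeR quasi-likelihood).

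The row lies 12 bases from CT010467.1, which the table annotates as ribosomal RNA, on the other strand at chr17:39846353-39848827. CT010467.1 had 14261, 12252 and 14085 counts in Maf.flox and 14560, 13191 and 14980 in Vil.Cre Maf.flox, a log2 fold change of 0.18 (adjusted p = 0.526, edgeR quasi-likelihood). Per 100 CT010467.1 counts there were 3.26, 4.29 and 3.42 Gm26917 counts in Maf.flox and 6.08, 5.28 and 5.94 in Vil.Cre Maf.flox, or 3.66 ± 0.554 against 5.77 ± 0.427 (SD, n = 3 each). The ratio therefore did not overlap between the groups either. All rows annotated as ribosomal RNA, mitochondrial ones included, took 0.516, 0.463 and 0.223% of counts in Maf.flox and 0.419, 0.451 and 0.315% in Vil.Cre Maf.flox, overlapping. The libraries were made from poly-T captured RNA. Reads of ribosomal repeats can map to many copies, so the Gm26917 count is uncertain, and the part of such reads in its rise was not tested. The call was kept in 6 of 14 alternative fits (log2 fold change 0.73 to 0.97, adjusted p from 4.04e-05 to 0.239). Here too leaving out any library but Maf.flox replicate 3 ended it.

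**Figure D2:**
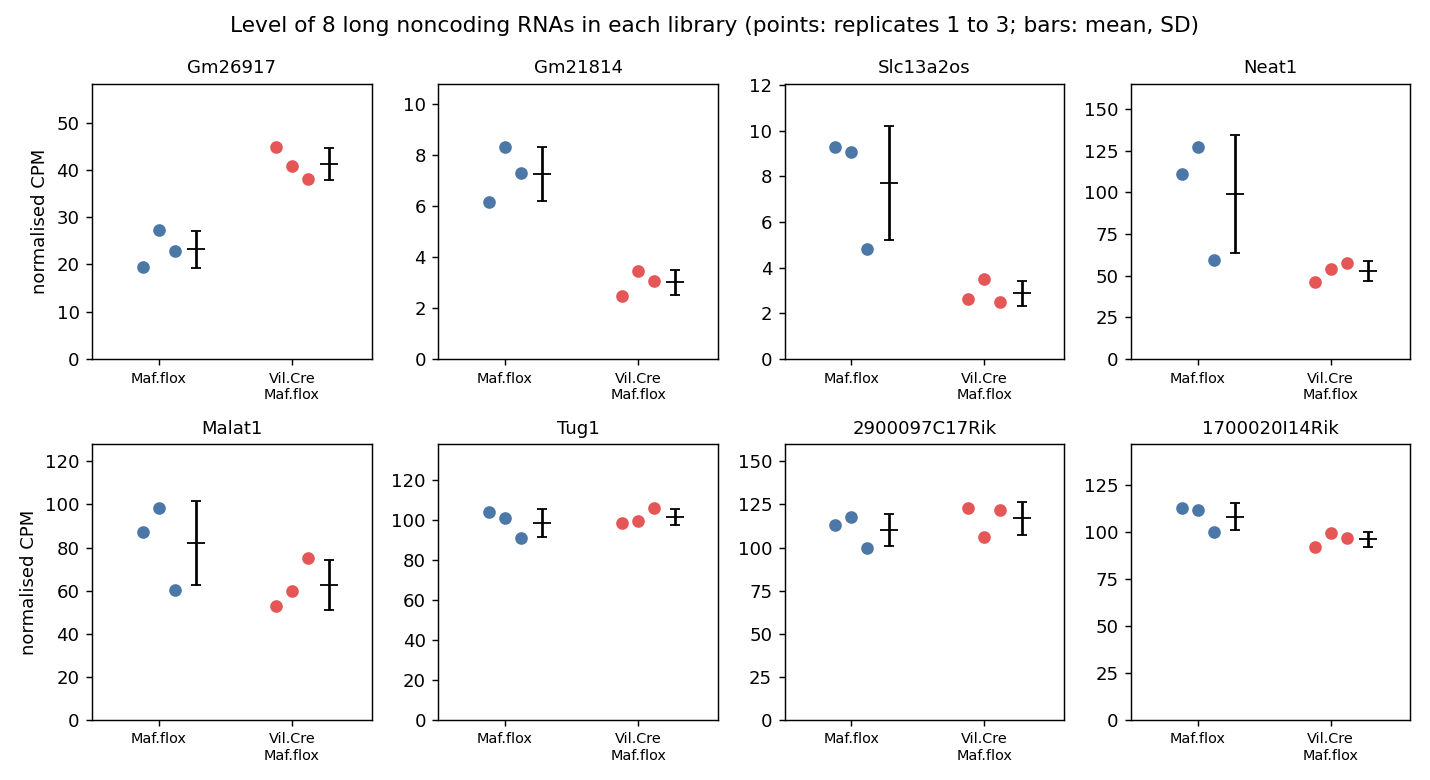
Normalised counts, CPM (y axes, from 0) of 8 long noncoding RNAs in each library of the 2 genotypes (x axes), with the group mean and SD as bars. Gm26917, Gm21814 and Slc13a2os separate the genotypes, and Neat1 does so narrowly because Maf.flox replicate 3 is at 59.1 CPM. 1700020I14Rik also separates them narrowly, with Maf.flox replicate 3 at 100.2 CPM and Vil.Cre Maf.flox replicate 2 at 99.85 CPM. Tug1 lies between 90.8 and 106 CPM in every library.

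Slc13a2os had the lowest log2 fold change of the members but did not pass the test. It met the rule only through Maf.flox (mean counts of 165.7 against 56.67), so its place as the lowest member is a description. It is annotated as antisense to Slc13a2, which encodes a sodium-coupled citrate and dicarboxylate transporter of the brush border. It lies at chr11:78394485-78405657 on the plus strand, and 17.4% of its exon bases are also exon of another gene. Counts were 221, 174 and 102 in Maf.flox and 52, 60 and 58 in Vil.Cre Maf.flox. In CPM these were 9.28, 9.05 and 4.83 against 2.63, 3.52 and 2.48, without overlap. The log2 fold change was -1.43 with a standard error of 0.289 (adjusted p = 0.0736, edgeR quasi-likelihood). It was called in 4 of 14 alternative fits, among them DESeq2 and the fit without Maf.flox replicate 3, with values from -1.68 to -1.26.

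Slc13a2 itself was at 158.3, 177.0 and 105.1 CPM in Maf.flox, against 59.59, 75.68 and 48.86 CPM in Vil.Cre Maf.flox. Its log2 fold change was -1.26 (adjusted p = 0.0657, edgeR quasi-likelihood), close to that of its antisense partner. Per 100 Slc13a2 counts there were 5.86, 5.11 and 4.60 Slc13a2os counts in Maf.flox and 4.42, 4.65 and 5.07 in Vil.Cre Maf.flox. This ratio, 5.19 ± 0.634 against 4.71 ± 0.330 (SD, n = 3 each), overlapped between the groups. The labels do not settle whether the libraries kept strand, and without strand reads from the exon bases both genes share cannot be told apart. Enterocyte markers moved in the same direction over the same libraries, and their part in either value was not tested.

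**Figure D3:**
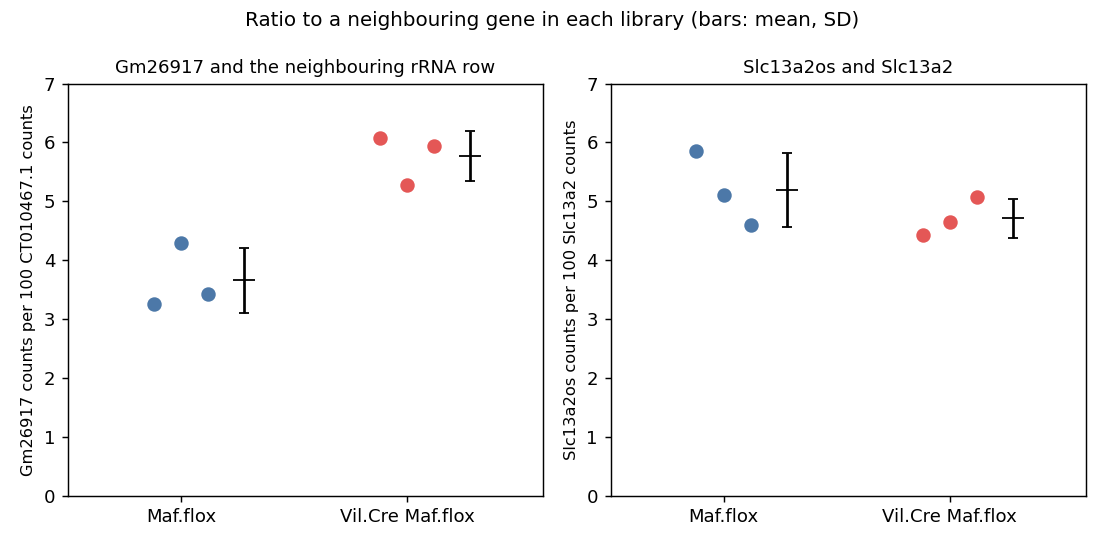
Counts of Gm26917 per 100 counts of the neighbouring ribosomal RNA row CT010467.1 (left) and of Slc13a2os per 100 counts of Slc13a2 (right) in each library, with the group mean and SD as bars (y axes from 0). The Gm26917 ratio is 3.26 to 4.29 in Maf.flox and 5.28 to 6.08 in Vil.Cre Maf.flox, while the Slc13a2os ratio overlaps between the genotypes.

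Among RNAs of nuclear architecture, Neat1, the scaffold of paraspeckles, had 2646, 2445 and 1247 counts in Maf.flox and 912, 924 and 1352 in Vil.Cre Maf.flox. In CPM these were 111, 127 and 59.1 against 46.2, 54.2 and 57.8. Maf.flox replicate 3 lay just above the highest Vil.Cre Maf.flox library, and the other 2 Maf.flox libraries were well above it. The log2 fold change was -0.91 (SE 0.265) and was not called (adjusted p = 0.165, edgeR quasi-likelihood). It was called by DESeq2 and without Maf.flox replicate 3 (log2 fold change -1.17, adjusted p = 0.00244, edgeR quasi-likelihood). The enterocyte marker sum of that library was 14380 CPM, the lowest of its group, and its part in the Neat1 value was not tested. The other 12 alternative fits did not call Neat1. The libraries were made from poly-T captured RNA, so forms of Neat1 or Malat1 without a poly-A tail may be missed in these values.

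Malat1, the abundant RNA of nuclear speckles whose gene lies near Neat1 on chromosome 19, was at 87.2, 98.4 and 60.3 CPM in Maf.flox, against 52.7, 59.7 and 75.3 CPM in Vil.Cre Maf.flox. The groups overlapped, and the log2 fold change was -0.39 (adjusted p = 0.383, edgeR quasi-likelihood). None of the 14 alternative fits called it. Again Maf.flox replicate 3 was the lowest of its group.

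Some RNAs with broad roles were steady. Tug1, a transcript required for male fertility, was at 104, 101 and 90.8 CPM in Maf.flox, against 98.6, 99.5 and 106 CPM in Vil.Cre Maf.flox (log2 fold change 0.04, SE 0.0965). 2900097C17Rik, the mouse counterpart of NORAD, which binds Pumilio proteins in the cytoplasm, was at 113, 118 and 99.7 against 123, 106 and 122 CPM (log2 fold change 0.08, SE 0.108). Xist had 0, 3038 and 3237 counts in Maf.flox and 0, 3 and 4883 in Vil.Cre Maf.flox. Its values followed the sex of the libraries, and its log2 fold change of -0.57 had a standard error of 2.76. Over the list of nuclear architecture and X inactivation, 8 genes were tested, 5 of them members; 5 were below 0, the median was -0.22 and none was called.

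The members that host small nucleolar RNAs, which guide chemical modification of ribosomal RNA, did not pass the test. Snhg6 (log2 fold change -0.02), Snhg18 (-0.01), Snhg12 (-0.35) and Epb41l4aos (-0.37) overlapped between the groups. Snhg6, Snhg18 and Epb41l4aos each contain an annotated small nucleolar RNA row on the same strand, Snord87, Snord123 and Gm23639. Of the whole list of such hosts, most of which fall outside the rule, 17 were tested, 15 lay below 0 and the median was -0.20. None was called, and 51.6% of all genes tested lay below 0.

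The other lists held few members. Tug1 and 2900097C17Rik were the members among 5 tested genes tied to p53, growth and stress, of which 3 lay below 0 and none was called. Gm10516, at 4.58, 5.04 and 4.79 CPM against 5.47, 7.57 and 6.67 CPM, was the 1 member on the list of microRNA hosts, of which 4 were tested, 3 lay below 0 and none was called. No member held a RefSeq microRNA hairpin inside its span, Gm10516 included. The lists of imprinted RNAs (3 tested, 2 below 0), of immune RNAs (2 tested, both above 0) and of RNAs beside homeobox or endoderm factor genes (3 tested, all below 0) held no member and no called gene.

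Among the remaining members whose libraries did not overlap, the higher ones were Gm43672, 2310001H17Rik, Gm10516, Gm2415, Ndufb1-ps and Gm20300, with log2 fold changes of 0.64, 0.44, 0.45, 0.38, 0.29 and 0.18. Gm43672 was at 5.29, 5.04 and 7.25 CPM in Maf.flox, against 8.16, 10.8 and 8.59 CPM in Vil.Cre Maf.flox (SE 0.204, adjusted p = 0.178, edgeR quasi-likelihood). 2310001H17Rik was at 9.03, 11.1 and 11 CPM against 13.2, 15.6 and 13.5 CPM (adjusted p = 0.205, edgeR quasi-likelihood). Neither transcript was called.

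The lower ones were 4933431E20Rik, 2610035D17Rik, Gm37494, 4632415L05Rik and 1700020I14Rik, at -0.62, -0.62, -0.43, -0.20 and -0.17. 4933431E20Rik was at 13.6, 16.3 and 11.4 CPM in Maf.flox, against 7.55, 8.04 and 11.2 CPM in Vil.Cre Maf.flox. It overlaps 4051 bases of Eps8l3, an adaptor of the actin cytoskeleton, which had a log2 fold change of -0.59 (adjusted p = 0.102, edgeR quasi-likelihood). It also overlaps Gstm5, which was at 0.19 (adjusted p = 0.553, edgeR quasi-likelihood). Of its exon bases 16.7% are also exon of another gene, and without strand reads from shared bases cannot be told apart. 2610035D17Rik was at 8.99, 12.2 and 9.76 CPM against 4.92, 7.16 and 8.04 CPM, with its nearest protein-coding gene Slc39a11, a zinc transporter, at 0.48. None of these 5 was called, and the lowest adjusted p among them was 0.19 in edgeR's quasi-likelihood test.

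Levels per gene length, as FPKM (fragments scaled to gene length and library size), spread widely among the members. The highest means over the 6 libraries were 89.0 FPKM for Gm3054, 67.3 for AW112010, 51.5 for Gm10076, 41.9 for Ndufb1-ps and 26.2 for Epb41l4aos. AW112010 carries a noncanonical open reading frame that is translated in immune cells. Gm3054 and Gm10076 are short, at 265 and 384 bases, and FPKM divides by that length. Next came Gm11695 (23.9), 2900097C17Rik (23.1), Tmem250-ps (21.1), Brip1os (15.9) and 1700020I14Rik (12.3), and the lowest was Gm37494 at 0.729 FPKM. The median was 3.32 FPKM, against 8.28 for protein-coding genes at the same minimum count.

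Neighbours in that order often overlapped. Gm3054 ranged from 67.2 to 117 FPKM and AW112010 from 51.6 to 92.7, so their order is within the spread of the libraries. Epb41l4aos, from 21.4 to 35.0 FPKM, likewise overlapped Gm11695, from 21.7 to 29.0. Gm10076 varied most of the members other than Xist, at 12.1, 33.6 and 23.0 CPM in Maf.flox, against 22.2, 19.4 and 8.59 CPM in Vil.Cre Maf.flox, a range of 3.916-fold. Brip1os varied least, with a range of 1.128-fold over the 6 libraries.

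All members together took little of each library. Without Xist they held 0.122, 0.130 and 0.119% of counts in Maf.flox and 0.116, 0.118 and 0.129% in Vil.Cre Maf.flox, or 0.124 ± 0.00569% against 0.121 ± 0.00700% (SD, n = 3 each). The groups overlapped. The 5 with the most counts, 2900097C17Rik, Brip1os, 1700020I14Rik, Tug1 and Xist, held 38.8% of all member counts, and the first 10 held 61.7%. The median biological coefficient of variation was 0.179 in members and 0.137 in protein-coding genes of at least 100 counts, whose median count was 788.7 against 193.4. Between 100 and 500 counts it was 0.184 in 44 members and 0.165 in 3424 protein-coding genes, at median counts of 160.4 and 270.3.

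The members lie close to other genes. In the coordinates of the table, 27 of 58 overlapped no other gene and 31 overlapped at least 1, of which 25 did so only on the opposite strand and 6 on the same strand. A protein-coding gene was overlapped by 21. Some exon bases were shared with another gene in 26 members, and 10% or more of them in 16, up to 49.5% in Gm9917. In 21 members the start lay within 1000 bases of a protein-coding start on the other strand, and 6 lay within 5000 bases downstream of a protein-coding gene on the same strand without overlapping it, among them Neat1 and Gm21814. No overlapping or nearest protein-coding gene was itself called.

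Each member was set beside the tested protein-coding gene that it overlaps, taking the most abundant where there were several, or otherwise the nearest. These correlations run across genes that share the same 6 libraries and are descriptions. Over 20 overlapping pairs Pearson's r of the log2 fold changes was 0.62 and Spearman's rho 0.29, and without Slc13a2os r was 0.28 over 19. Over 22 members that lay within 10000 bases without overlap r was 0.51 and rho 0.47, and over 15 farther ones without Xist r was -0.06. The 22 include Gm21814 and Cep83os, which met the rule only through Maf.flox, and r was not computed without them. For the 21 members with a start within 1000 bases of an opposite protein-coding start, set beside the gene of that start rather than the one they overlap, r was -0.19 and rho -0.17. Examples on either side are 1300002E11Rik, at -0.22, which overlaps Map3k13 at -0.86 on the same strand, and Gm2415, at 0.38 beside Ctdspl at -0.50.

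**Figure D4:**
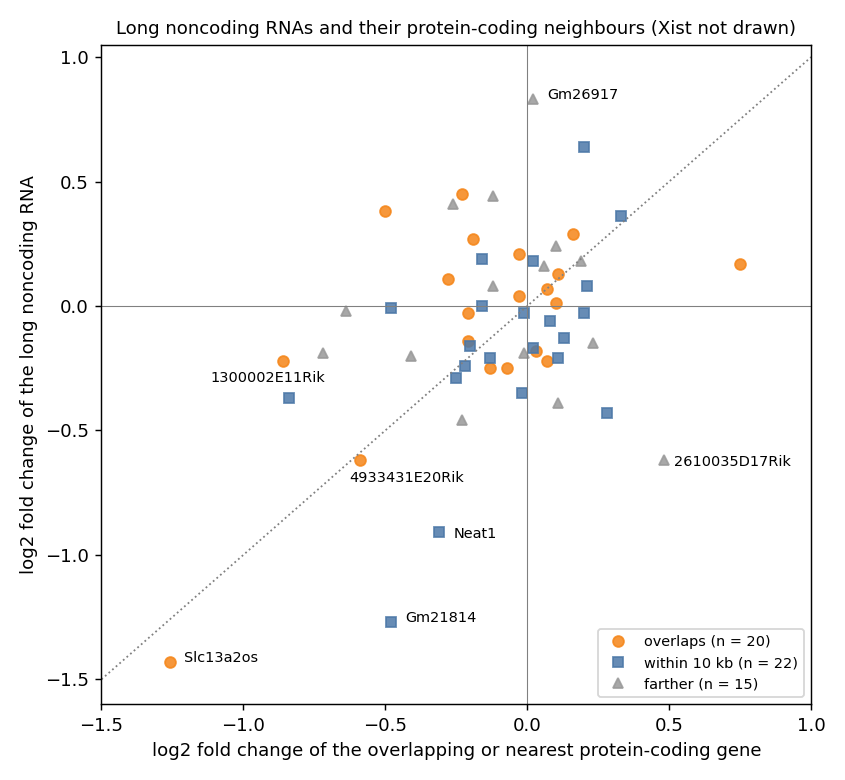
Log2 fold change of each long noncoding RNA (y axis) against that of its overlapping or nearest tested protein-coding gene (x axis), with symbols for overlap, a distance of up to 10 kb and a larger one; the dotted line marks equal values and Xist is not drawn. Slc13a2os at -1.43 beside Slc13a2 at -1.26 lies alone at the lower left, and Gm26917 is at 0.83, with its nearest tested protein-coding gene, 1029141 bases away, at 0.02.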

How the data were processed

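Per the labels' protocols, total RNA of sorted cells was captured on poly-T beads and copied with random hexamers, and whether the libraries kept strand is not stated. Per the submitters' processing notes, the tools were HISAT2 2.0.5, featureCounts 1.5.0-p3 and DESeq2, on build GRCm38 (mm10). Deposited counts are unnormalised whole numbers for each gene. Deposited FPKM values are these counts over gene length and a library size, and were used only to compare levels between genes. In the table, 24 gene symbols that had become dates were restored by identifier.

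All 13740 genes that passed filterByExpr (minimum count 10) were fitted with edgeR 4.0.16 (R 4.3.3), using TMM factors and the robust quasi-likelihood test, with Benjamini-Hochberg adjustment and a threshold of 0.05. CPM values use the TMM factors. In a simulation of this comparison with 13543 genes the test recovered 77% of 2-fold and 92% of 4-fold changes, and 8% of its calls were false. Counts were drawn independently for each gene from the measured means and dispersions. The simulation held no differences shared by many genes of a library, so these shares need not hold for the real libraries. Overlaps used the coordinates of the table and, for exons, GENCODE M21 (GRCm38). Log2 differences within a sex added 0.1 CPM. Alternatives included DESeq2 1.42.0 and limma-voom (limma 3.58.1).

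The members and lists were chosen with earlier results of these data known. Members were named when called, among the 10 highest in FPKM, without overlap between the groups (up to 10 in each direction, by p), or on a list, besides Xist. Members named for a promoter word, a neighbour, their variation or the limit of the rule were picked after their values were seen.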

Additional observations from a re-analysis of the deposited data

How the results depend on the processing

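The number of long noncoding RNAs called, 2 (1 higher, 1 lower), was the same with RLE and upper quartile factors and with a mean of at least 50 counts as the limit of the rule. It was 3 (2 lower) without the filter on low counts and at a threshold of 0.1, 4 (3 lower) with DESeq2, 1 (0 higher) with at least 50 counts in 3 libraries, and 0 with limma-voom, with sex as a term and at a threshold of 0.01. It was 1 (0 lower) for members with a mean of at least 200 counts, where Gm21814 is left out, and also for those that overlap no other gene. Leaving out each library in turn gave 0 to 4 members (0 to 1 higher, 0 to 3 lower): 4 without Maf.flox replicate 3 and 0 without any of the others. Over all genes the calls numbered 75, and 365 without the filter, 760 with DESeq2, 34 with limma-voom, 38 with sex as a term, 372 and 2 at thresholds of 0.1 and 0.01, and 8 to 701 on leaving out a library, with 701 without Maf.flox replicate 3. The cause of these differences was not tested.

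Replicate numbers are shared by the groups, but same-numbered libraries deviated together with correlations of only 0.092, -0.026 and 0.27, so they were not treated as pairs. A fit with the replicate number as a block called 3 members (2 lower) and 440 genes.

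The median log2 fold change of members, -0.046, was -0.104 with limma-voom, -0.110 for members of at least 200 counts and -0.153 for those that overlap no other gene. Of 825 alternative values for single members and Maf, 766 kept direction and side of the threshold. The direction turned in 35 values of 14 members, none of them called, whose log2 fold changes other than that of Xist were at most 0.21 in size. Sex as a term gave 0.45 for Xist, -0.07 for Gt(ROSA)26Sor and -0.00 for 5033406O09Rik. Upper quartile factors gave 0.01 for Snhg18, 0.00 for Snhg6 and 0.02 for 5031425E22Rik, no filter gave 0.01 for Snhg18 and 0.02 for 5031425E22Rik, and RLE factors and DESeq2 gave 0.00 for 5031425E22Rik. Leaving out a library in turn gave -0.07 to 0.03 for Brip1os, -0.01 to 0.09 for Tug1, -10.20 to 0.03 for Xist, -0.11 to 0.05 for 1810058I24Rik, -0.08 to 0.11 for Snhg18, -0.11 to 0.08 for Snhg6, -0.09 to 0.05 for 5031425E22Rik, -0.04 to 0.17 for Fam120aos, -0.08 to 0.16 for Gt(ROSA)26Sor, -0.37 to 0.12 for Gm45889, -0.43 to 0.29 for Gm53, -0.37 to 0.01 for Cep83os and -0.14 to 0.05 for A130014A01Rik. In the lowest groups of counts, such as 49 to 72 for Gm21814 in Vil.Cre Maf.flox, depth limits the precision.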
